A study of Drosophila melanogaster with 59 samples.

Results

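The proteasome subunit genes of Drosophila melanogaster were taken as the genes whose FlyBase symbol begins with Prosalpha, Prosbeta, or Rpn or Rpt followed by a digit. This rule found 48 genes among the 17558 gene identifiers of the long RNA files, and it used no measured value. Of these, 32 encode the general subunits, and 16 are variant copies whose symbol carries an R or T after the subunit number. The general subunits comprise 14 genes of the core particle and 18 of the regulatory particle. Of the 59 samples of the series, the 16 long RNA libraries were used here, 8 from heads of 4-day-old adult males and 8 from unfertilized eggs, with 2 libraries for each of 4 lines. All 4 lines are in the Oregon-R strain background and carry the w[1118] allele. The line called w1118 carries no transgene, and Fab2L carries the Fab2L transgenic insertion, which includes the mini-white eye color reporter. White* and Red* carry the same insertion and are epilines of Fab2L, lines kept apart by eye color and known from the study to differ in inherited chromatin state. RNA longer than 200 nt was sequenced after removal of ribosomal RNA and without selection for poly(A). The labels do not say whether the 2 libraries of a line came from separate collections, and a p-value here sets a difference against library-to-library spread alone, which may be technical. Heads and eggs differ in sex, developmental stage, tissue and deposition batch at once, and these cannot be told apart.

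The proteasome degrades proteins that carry chains of ubiquitin. Its core particle is a barrel of stacked rings: outer rings of Prosalpha subunits gate the entry, and inner rings of Prosbeta subunits hold the catalytic sites, in Prosbeta1, Prosbeta2 and Prosbeta5. The regulatory particle caps the barrel. Its base holds a ring of Rpt ATPases that unfolds substrates, with Rpn1, Rpn2, Rpn10 and Rpn13, which bind ubiquitin or the factors that do. Its lid is built from other Rpn subunits and holds Rpn11, the deubiquitinase that removes ubiquitin chains. In flies, the transcription factor encoded by cnc is known to raise the transcription of subunit genes, and eggs are loaded with maternal proteasomes and their mRNAs.

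Depth ranged from 13.5 to 36.6 mega-reads (M reads) in heads and from 27.8 to 35.6 M reads in eggs, as worked back from the deposited values. FPKM, the deposited unit, is reads per gene length and per unit of depth as scaled by the authors, and that scaling was set separately within heads and within eggs. In heads the depth differed between lines, with 13.5 to 16.05 M reads in the Fab2L and White* libraries and 25.2 to 36.6 M reads in those of w1118 and Red*. Photoreceptor and neuron markers summed to FPKM of 9373 to 12950 in heads and 1.06 to 8.17 in eggs, and the 6 maternal markers to 19.6 to 22.6 in heads and 672 to 764 in eggs. The maternal sum in eggs is mostly osk, with 418 to 525. The maternal marker grk lay the other way, with 6.67 to 8.59 in heads and 3.05 to 4.28 in eggs. In eggs the same head markers, mostly ninaE, summed to 8.17 and 7.38 in w1118 and 7.16 and 6.74 in Red*, against 1.06 to 2.02 in Fab2L and White*. The yolk and follicle cell markers, known from female tissue, summed to 625 in w1118 head library 1 and to 5.48 to 20.9 in the other 7 head libraries. In w1118 head library 1 the yolk genes Yp1, Yp2 and Yp3 had 110, 252 and 263, and the follicle cell genes Cp36, Cp38 and Vm26Aa at most 0.0582. Of 14 testis markers 3 had a mean FPKM above 1 in heads, bol, Mst77F and sa, and Mst84Da was at 0 in every library.

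All general subunits were higher in eggs than in heads, and subunits of the core particle held the highest levels in both. Prosbeta5, the subunit with chymotrypsin-like activity, had the highest level in both: 57.4 ± 4.53 (SD, n = 8) FPKM in heads and 480.2 ± 27.6 (SD, n = 8) in eggs. Prosbeta6, a non-catalytic neighbor in the inner ring, followed with 46.9 ± 6.92 (SD, n = 8) and 402 ± 28.7 (SD, n = 8). The third place was held in heads by Prosalpha2, at 44.7 ± 4.28 (SD, n = 8), and in eggs by Prosbeta3, at 375 ± 30.5 (SD, n = 8). The lowest levels in heads were those of the ATPase Rpt6, 14.8 ± 0.830 (SD, n = 8), and of the base scaffolds Rpn1, 16.2 ± 1.56 (SD, n = 8), and Rpn2, 17.8 ± 1.41 (SD, n = 8). In eggs the lowest were Rpn1 at 34.3 ± 4.22 (SD, n = 8), Rpn2 at 59.5 ± 5.75 (SD, n = 8) and the ubiquitin receptor Rpn13 at 63.9 ± 11.02 (SD, n = 8). Within a library the highest subunit exceeded the lowest 3.72 to 4.26 times in heads and 10.5 to 16.4 times in eggs. The order of the 32 levels was alike but not identical, with Spearman's rho of 0.67 across genes between the tissue means. In such bulk samples, fewer cells of a type and less RNA per cell cannot be told apart. The fewest reads behind any of these values were 251 in heads and 2646 in eggs.

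**Figure D1:**
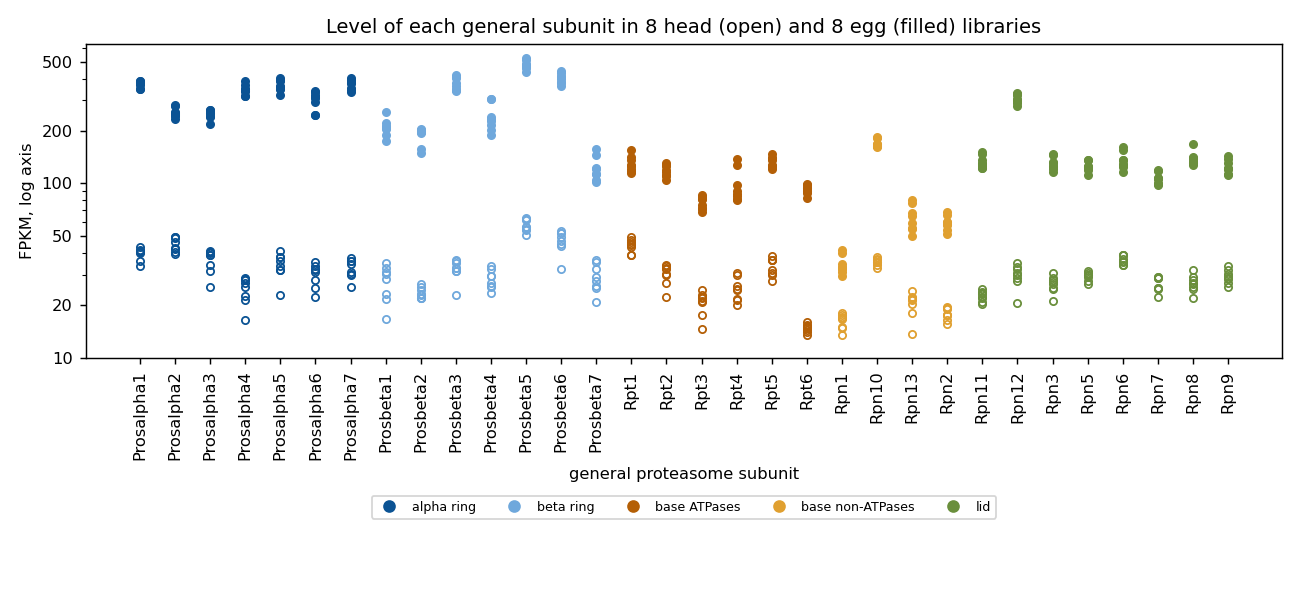
FPKM (log axis) of each of the 32 general subunits in the 8 head libraries (open circles) and the 8 egg libraries (filled circles), colored by position in the complex. For every subunit the egg libraries lie above the head libraries, and eggs show the wider spread, from Rpn1 with a mean of 34.3 to Prosbeta5 with 480.2.

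All 32 general subunits were lower in heads than in eggs in limma on log2(FPKM + 1), where 39.8% of the 11405 genes tested were lower and 57.6% higher. The median difference was -3.07 for core subunits and -1.97 for regulatory subunits on the log2 scale, while the median over all genes tested was 0.77 in favor of heads. In the outer ring Prosalpha4 had the largest difference, -3.77 (SE 0.057, adjusted p = 3.17e-15), followed by Prosalpha7 with -3.48 and Prosalpha5 with -3.40. In the inner ring Prosbeta3 led with -3.50. The lid subunit Rpn12, at -3.33, was the only regulatory subunit among the first 5. The smallest differences were those of Rpn1, -1.03 (SE 0.042, adjusted p = 7.05e-11), Rpt1, -1.54, Rpn13, -1.60, Rpn2, -1.68, and the lid subunit Rpn6, -1.86. Because heads and eggs were scaled separately, the tissue difference was also computed with 1 joint scaling of all 16 libraries. All 32 general subunits then remained lower in heads, with Prosalpha4 at -3.18, Rpt1 at -0.95 and Rpn1 at -0.46 on the log2 scale, and the median over all genes moved from 0.77 to 1.08. In a measure that needs no scaling between libraries, the general subunits made up 0.108% to 0.147% of the summed FPKM of a head library and 0.542% to 0.755% of that of an egg library.

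The core and regulatory particles differed in how far apart the tissues were. The ratio of mean FPKM in eggs to that in heads was 4.23 to 13.9 over the 14 core subunits, with a median of 8.56. Over the 18 regulatory subunits it was 2.11 to 10.3, with a median of 4.01. By position the median ratio was 10.05 in the outer ring, 8.37 in the inner ring, 4.61 in the lid, 3.94 in the ATPase ring and 3.23 among the other base subunits. The 2 ranges overlapped widely. The core subunits Prosbeta7, at 4.23, Prosalpha2, at 5.73, and Prosalpha3, at 6.87, lay within the regulatory range, among others. The regulatory subunits Rpn11, at 5.93, Rpt6, at 6.22, and Rpn12, at 10.3, lay within the core range, among others. Within each library, the level of the median regulatory subunit was 0.757 to 0.925 of that of the median core subunit in heads and 0.332 to 0.410 of it in eggs, with no overlap between the 2 tissues. This ratio is taken inside 1 library and does not depend on the scaling between libraries.

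**Figure D2:**
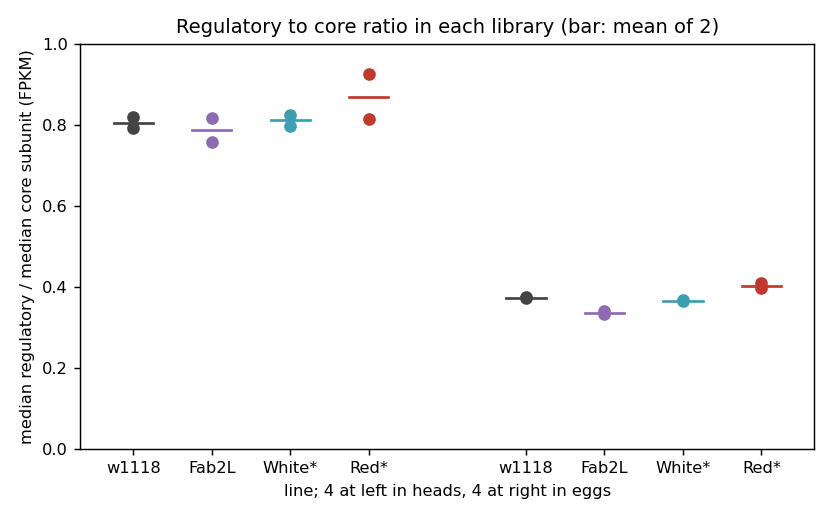
Ratio of the median regulatory to the median core subunit, by FPKM, in each library of the 4 lines, heads at left and eggs at right, with a bar at the mean of the 2 libraries. Head libraries lie between 0.757 and 0.925 and egg libraries between 0.332 and 0.410; among eggs, both Red* libraries are the highest and both Fab2L libraries the lowest.

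Transcript length moved with this difference. The core subunits are short, with a length used for FPKM of 815 to 1215 nt, and the regulatory subunits longer, with 995 to 3412 nt. Across the 32 general subunits, Spearman's rho between length and the egg minus head difference was -0.79, and across the 11403 genes tested that have a length it was -0.04. Rpn12, the shortest regulatory subunit at 995 nt, had a core-like ratio, and Prosbeta7, the longest core subunit at 1215 nt, had a regulatory-like one. Some core subunits lay the other way. Prosalpha4, at 1176 nt, had the highest ratio, 13.9. Prosbeta4 and Prosbeta1, the shortest core subunits at 815 and 852 nt, had 8.53 and 7.68, below the core median of 8.56. The rho of -0.79 pools both particles, and no rho was computed within either. The part of length in the difference between the particles was not tested.

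**Figure D3:**
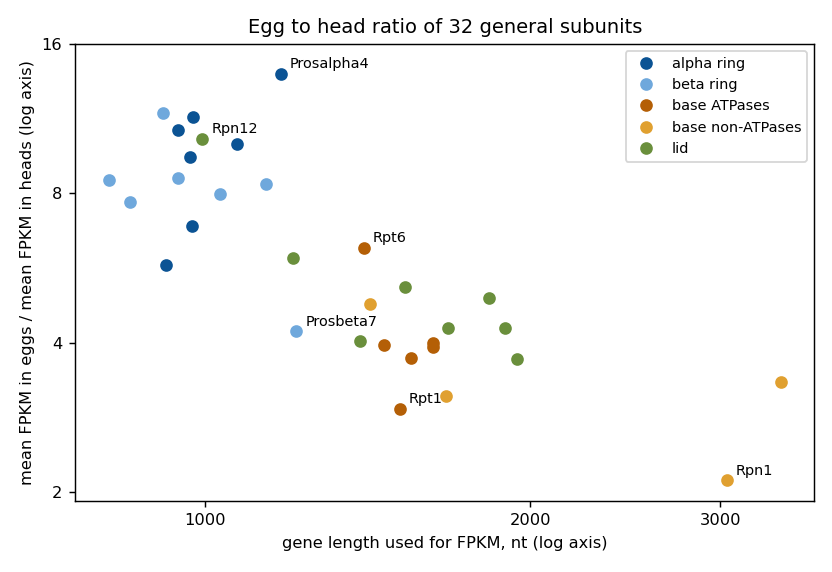
Ratio of mean FPKM in eggs to mean FPKM in heads (log axis) against the gene length used for FPKM (nt, log axis), 1 point for each of the 32 general subunits. Short genes, most of them core subunits, have ratios of up to 13.9, and Rpn1, at 3041 nt, has the lowest ratio, 2.11.

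The 16 variant copies had low levels in both tissues, with 1 exception that cannot be read as its own expression. Several of these copies are known in flies for expression in the testis. Prosalpha1R had FPKM of 34.3 to 44.1 in heads and 355 to 397 in eggs, but its whole reads equaled those of Prosalpha1 in 14 of 16 libraries and differed by 1 read in the other 2. The pair lies on chromosome arm 2R, with starts 3110 bp apart on dm6, and reads of the 2 genes could not be told apart. The other 15 copies summed to FPKM of 10.2 to 12.5 in a head library and 0.928 to 1.95 in an egg library. In heads 5 of the 15 passed FPKM 1 in any library. Rpt4R, a copy of the ATPase Rpt4, reached 2.79 to 4.68, or 15.2% of the mean level of Rpt4. Rpn13R reached 1.86 to 2.93, or 11.998% of that of Rpn13, and Prosalpha4T1 0.938 to 3.22, or 6.82% of that of Prosalpha4. Rpt3R ranged from 0.240 to 1.08 and Rpt6R from 0.266 to 1.004 in heads. In eggs Rpt3R alone passed FPKM 1, with 0.837 to 1.76, or 1.53% of the level of Rpt3. Of the other 14 copies 4 had no read in any of the 8 egg libraries, Prosalpha4T1, Rpt4R, Rpn12R and Prosbeta4R1, and 9 had 1 to 9 reads in all. Prosalpha4T1 shares 891 bp with CG42322, Rpn12R 940 bp with Sytbeta and Rpn13R 1088 bp with rg, and whether the counting used strand is not given in the sources used here. The same holds among general subunits for Rpn8, Rpt1 and Rpt6, which share more than 1000 bp with another gene.

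Genes that work with the proteasome differed between tissues in the same direction. Of 20 genes of assembly, activation, inhibition and substrate delivery found in the files, 19 were tested, and 17 were lower in heads and 1 higher, with a median of -1.49, where 39.8% of all genes were lower and 57.6% higher. The assembly chaperone gene Pomp had mean FPKM of 12.8 in heads and 53.8 in eggs, and REG, the alternative cap of the core, 28.6 and 164. The deubiquitinase genes Uch-L5 and Usp14 had 9.35 and 141, and 18.8 and 133. The exception was cnc, with 31.5 in heads and 18.1 in eggs, a log2 difference of 0.76. Of 16 ubiquitin and conjugation genes 14 were lower in heads and 2 higher, with a median of -0.83, and of 18 tested genes of the APC/C and SCF ligases all 18 were lower, with a median of -2.11. These lists were compiled with earlier results of these data known.

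In heads no member was called in 3 of the 6 comparisons of lines. Of the 36 members that passed the filter of FPKM above 1 in at least 2 of 8 libraries, 0 were called between White* and Fab2L, where 0.0899% of all 11119 genes were higher and 0.027% lower, and 0 had an unadjusted p below 0.05. None was called between Red* and Fab2L, where 0.378% of all genes were higher and 1.87% lower and 7 members were lower at an unadjusted p below 0.05. None was called between White* and w1118, where 2.57% of genes were higher and 3.1% lower and 3 general subunits were lower and 1 variant copy higher at an unadjusted p below 0.05. With voom on whole reads these 3 counts were 0 as well. Over all 11119 genes, 366 were higher and 524 lower at an unadjusted p below 0.05 between White* and Fab2L. Between Red* and Fab2L 800 were higher and 1415 lower at that threshold, and between White* and w1118 1012 and 1143. The 3 largest differences of White* from Fab2L were 0.25 for Prosbeta1, 0.24 for Rpn13R and 0.19 for Prosbeta7. Those of Red* from Fab2L were -0.41 for Prosbeta1, -0.40 for Rpn13 and -0.38 for Prosalpha4. Those of White* from w1118 were 0.40 for Rpt4R, 0.31 for Prosalpha6 and -0.30 for Prosalpha4T1. Between Fab2L and w1118 1 member was called, where 3.51% of genes were higher and 3.12% lower: Rpt4, at -0.40 (SE 0.089, adjusted p = 0.0423). The FPKM of Rpt4 in heads was 30.8 and 29.9999 in w1118, 24.4 and 21.4 in Fab2L, 25.8 and 24.9 in White* and 20.01 and 21.7 in Red*, so that both w1118 libraries lay above the other 6. Among the 32 general subunits 11 had both w1118 libraries above the other 6 and 1, Rpt5, had them below, where 11.0% and 9.86% of all genes did. Without the 20 most abundant RNAs in the scaling these counts were 6 and 1, and no such count was made over all genes. That scaling is by the summed FPKM of the remaining genes, where the authors' scaling is by median of ratios. Changes under it are therefore not those of the 20 RNAs alone. Rpt4R and Prosbeta7, with 0.42 and -0.41, did not pass. The call of Rpt4 was lost, and calls over all genes fell, when any 1 library of either line was left out.

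Most calls in heads were in comparisons of Red*, which share its 2 libraries. Between Red* and w1118 7 members were lower and 0 higher, against 8.07% of all genes that were lower and 3.75% that were higher. Prosbeta1, which holds the caspase-like site, had the largest difference, -0.80 (SE 0.14, adjusted p = 0.0125), with FPKM of 32.8 and 34.96 in w1118, 28.2 and 23.1 in Fab2L, 30.3 and 30.98 in White* and 16.6 and 21.6 in Red*. The inner ring subunit Prosbeta7 fell by 0.62 on the log2 scale and had FPKM of 35.3 and 36.1 in w1118, 27.6 and 25.8 in Fab2L, 29.1 and 32.2 in White* and 20.8 and 25.2 in Red*. Both Red* libraries lay below the other 6 for these 2 genes. The outer ring subunits Prosalpha4 and Prosalpha3 had differences of -0.56 and -0.50, and the ATPases Rpt4, Rpt3 and Rpt2 of -0.53, -0.47 and -0.45, with adjusted p from 0.0121 to 0.0437. Over the 32 general subunits the median difference was -0.27, and 30 were negative, against a median of -0.00 over all genes. With the 20 most abundant RNAs removed from the scaling, which moved the median of all genes by 0.12, 5 members were lower and 1 higher. Over all genes 634 were then lower and 1118 higher. The count of members called rose without Red* library 2. It fell without Red* library 1, without w1118 library 2 and without w1118 library 1, the library with high yolk gene levels. Calls over all genes fell in each of these fits.

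Between Red* and White* heads 2 members were lower, Prosbeta1 at -0.66 (SE 0.14, adjusted p = 0.0455) and Rpt3 at -0.51 (SE 0.10, adjusted p = 0.0438), against 3.02% of all genes lower and 0.845% higher. The FPKM of Rpt3 was 22.2 and 22.9999 in w1118, 21.2 and 20.8 in Fab2L, 22.03 and 24.5 in White* and 14.6 and 17.6 in Red*, with both Red* libraries below the other 6. Rpn13, with -0.53 (SE 0.13, adjusted p = 0.0621), did not pass. Of the 32 general subunits 28 had a negative difference, with a median of -0.27, against 0.00 over all genes, and 15 were lower at an unadjusted p below 0.05. Over all 11119 genes 1539 were lower and 1037 higher at that threshold. Among the 32, 13 had both Red* libraries below the other 6 head libraries and 0 had them above, where 13.6% and 10.5% of all genes did. With the 20 most abundant RNAs removed from the scaling, these 2 counts were 3 and 1, and no such count was made over all genes. The 2 calls were lost under that scaling, with centring on the median gene, and when any 1 library of White* or Red* library 1 was left out. Without Red* library 2 there were more. Calls over all genes also fell in the former fits and rose without Red* library 2. In Red* library 1 the FPKM of the general subunits summed to 789, against 926 to 1064 in the other 7. As a share of the summed FPKM of its library this was 0.113%, above both Fab2L libraries, with 0.109% and 0.108%. Outside the 20 most abundant RNAs the share was 0.273%, the lowest of the head libraries, against 0.287% to 0.327% in the others. The median subunit over the median gene was also lowest there, at 2.32 against 2.74 to 3.17.

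Some cytosolic chaperone genes and 3 proteasome partners were also lower in Red* heads. Of 18 chaperone genes 8 were lower in Red* than in White* and 0 higher, with a median of -0.62, 7 of them subunits of the CCT folding ring and the other Hsc70-4. Of the same genes 4 were lower in Red* than in w1118 and 6 lower than in Fab2L. Over all genes 3.02% were lower than in White*, 8.07% lower than in w1118 and 1.87% lower than in Fab2L. White* heads lay above w1118 for 17 of the 18 chaperone genes, with 1 of them, CCT3, called higher and 7 higher at an unadjusted p below 0.05. Over all 11119 genes in that comparison 5429 had a positive difference, 2.57% were called higher, and 1012 were higher at an unadjusted p below 0.05. Of the 19 proteasome partners tested 3 were lower in Red* than in w1118 heads, Pomp with a difference of -0.88 (SE 0.18, adjusted p = 0.0250), p47 with -0.48 and CG12321 with -0.41. None of the 16 ubiquitin and conjugation genes was called in any head comparison of lines. The head markers summed to 9373 and 10471 in Red* and 10557 to 12950 in the other lines, a sum that is mostly ninaE, with 7379 and 8587 in Red*. Of the 7 head markers 5 had a positive Red* minus White* difference, with a median of 0.17. The neuron marker elav had FPKM of 19.7 and 22.7 in w1118, 17.5 and 18.97 in Fab2L, 18.004 and 16.4 in White* and 25.1 and 20.3 in Red*. The testis markers summed to 56.6 and 48.8 in Red* and 31.8 to 42.6 in the other lines. That sum is mostly bol, with FPKM of 48.6 and 40.7 in Red* and 25.2 to 35.7 in the other lines. The part of these genes in the differences was not tested.

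In eggs, the lines with the transgene differed from w1118 in Rpt4, Prosbeta4, Prosbeta7 and Prosalpha6. Rpt4, an ATPase of the base, had FPKM of 138 and 128 in w1118, 86.4 and 81.8 in Fab2L, 84.7 and 79.8 in White* and 90.8 and 97.9 in Red*, and its difference from w1118 was -0.65 (SE 0.064, adjusted p = 0.000228) in Fab2L, -0.68 (SE 0.064, adjusted p = 0.000139) in White* and -0.49 (SE 0.064, adjusted p = 0.000785) in Red*. The inner ring subunit Prosbeta4 had FPKM of 305 and 307 in w1118, 235 and 218 in Fab2L, 229 and 239 in White* and 203 and 189.8 in Red*, with differences of -0.43, -0.38 and -0.64. Prosbeta7 had 158 and 146 in w1118, 121 and 114 in Fab2L, 105 and 102 in White* and 114 and 122 in Red*, with differences of -0.37, -0.55 and -0.36. For these 3 genes both w1118 libraries lay above the other 6. The outer ring subunit Prosalpha6 lay the other way, with 246 and 248 in w1118, 336 and 341 in Fab2L, 324 and 313 in White* and 295 and 309.8 in Red* and differences of 0.45, 0.37 and 0.29. The adjusted p of these 4 genes was at most 0.00381 in the 3 comparisons, which share the w1118 libraries. All 4 kept their calls and directions in every alternative of the Fab2L and White* comparisons, and in those of Red* all but Prosbeta7, whose adjusted p reached 0.205. On dm6 by RefSeq Release 6, Rpt4 lies at chrX:6289470-6291245, Prosbeta4 at chr2L:16731180-16732133, Prosbeta7 at chr3R:5357012-5358364 and Prosalpha6 at chr2L:10221351-10222546.

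**Figure D4:**
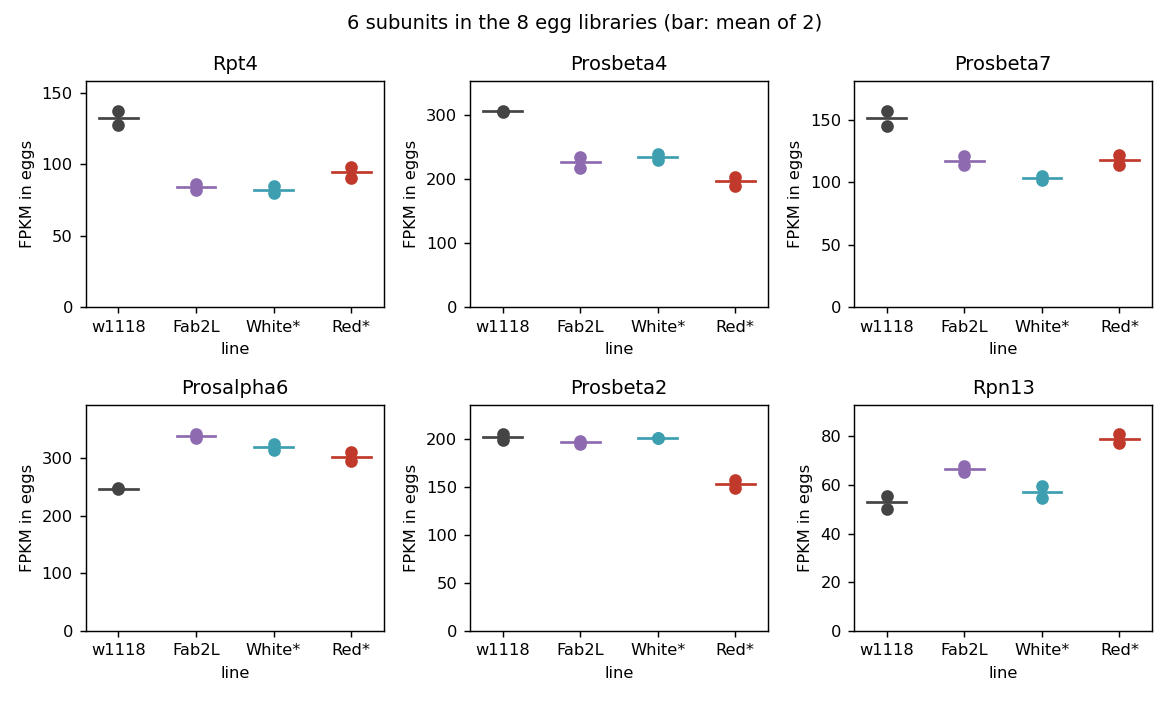
FPKM in eggs of 6 subunits, 2 libraries for each line, with a bar at their mean. Rpt4, Prosbeta4 and Prosbeta7 are highest in w1118 and Prosalpha6 lowest; Prosbeta2 is lowest and Rpn13 highest in the Red* libraries.

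Other subunits were also called in the transgene lines against w1118, and the split between higher and lower depends on the scaling. Of the 34 members tested in eggs 2 were higher and 7 lower in Fab2L than in w1118, against 14.6% and 14.4% of the 6682 genes tested. Between White* and w1118 3 were higher and 17 lower, against 18.8% and 19.0% of genes, and between Red* and w1118 8 were higher and 10 lower, against 22.7% and 21.8%. The other called subunits in Fab2L were Rpn13, 0.33, and, lower, Rpn6, -0.33, Rpt1, -0.29, Rpn3, -0.25, and Rpn5, -0.24. In White*, Prosbeta1 had a difference of -0.39, Rpt1 of -0.34, Rpn3 of -0.27 and Rpt3 of -0.24, and the largest increase after Prosalpha6 was Rpn9 with 0.21. The inner ring subunits Prosbeta6 and Prosbeta3 and the lid subunit Rpn6 had differences of -0.24, -0.22 and -0.22, and the copy Rpt3R, with FPKM of 1.25 and 1.76 in w1118, 1.21 and 1.20 in Fab2L, 1.08 and 0.837 in White* and 1.12 and 1.05 in Red*, one of -0.35. In Red* eggs, Rpn13 had a difference from w1118 of 0.57, Rpn6 of -0.37, Rpn1 of 0.26 and Rpn11 of 0.24. Prosalpha5, Prosbeta3 and the lid subunit Rpn8 had -0.25, -0.25 and 0.23. By particle, 7 regulatory subunits were higher and 2 lower in Red*, and 1 core subunit was higher and 8 lower. Of the 32 general subunits 15 had both w1118 egg libraries above the other 6 and 2 below, where 16.8% and 16.2% of all genes did. Without the 20 most abundant RNAs in the scaling these 2 counts were 3 and 6, and no such count was made over all genes. Under that scaling the members called were 2 higher and 4 lower in Fab2L, 3 and 8 in White*, and 13 and 2 in Red*. The median of all genes moved by 0.07, 0.02 and 0.21 on the log2 scale. Over all genes 1250 were then higher and 584 lower in Fab2L, 1181 and 948 in White*, and 3420 and 497 in Red*.

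Between Red* and White* eggs, most called members were regulatory subunits that were higher in Red*, and 2 genes of the inner ring were lower. In all, 11 of 34 members were higher and 3 lower, against 21.5% and 22.7% of all genes. In the regulatory particle 9 of 18 were higher and 1 lower, with a median difference of 0.15, and in the core particle 2 of 14 were higher and 2 lower, with a median of -0.02, while the median over all genes was -0.02. The ubiquitin receptor Rpn13 had the largest difference, 0.46 (SE 0.067, adjusted p = 0.00199), with FPKM of 55.6 and 50.001 in w1118, 67.7 and 65.3 in Fab2L, 59.5 and 54.6 in White* and 77.3 and 80.9 in Red*. Among the increases, the base scaffolds Rpn1 and Rpn2 came next. Rpn1 had 34.5 and 32.96 in w1118, 32.6 and 30.97 in Fab2L, 32.5 and 29.5 in White* and 41.5 and 39.7 in Red* FPKM, a difference of 0.38 (SE 0.060, adjusted p = 0.00274), and Rpn2 had 57.4 and 58.5 in w1118, 60.4 and 59.9 in Fab2L, 54.3 and 51.02 in White* and 66.1 and 68.6 in Red*, a difference of 0.35 (SE 0.049, adjusted p = 0.00185). Both Red* libraries lay above the other 6 for these 3 genes. Smaller increases were those of the ATPases Rpt2, 0.26, Rpt3, 0.25, and Rpt4, 0.19, and of the lid subunits Rpn11, 0.15, and Rpn7, 0.14. In the core, Prosalpha3 and Prosbeta7 were higher by 0.18 and 0.19.

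Prosbeta2, the catalytic subunit with trypsin-like activity, was lower in Red* eggs. Its FPKM in eggs was 199 and 205 in w1118, 198 and 196 in Fab2L, 201 and 201 in White* and 149 and 157 in Red*, so that both Red* libraries lay below the other 6. The difference of Red* from White* was -0.40 (SE 0.049, adjusted p = 0.00133), from Fab2L -0.36 (SE 0.049, adjusted p = 0.0037) and from w1118 -0.40 (SE 0.049, adjusted p = 0.000571), comparisons that share the Red* libraries. Prosbeta4 had a Red* minus White* difference of -0.25 (SE 0.060, adjusted p = 0.0127) and the lid subunit Rpn9 one of -0.15 (SE 0.053, adjusted p = 0.0464). In heads Prosbeta2 had FPKM of 26.5 and 25.5 in w1118, 23.2 and 22.1 in Fab2L, 22.1 and 22.8 in White* and 21.99 and 24.4 in Red* and a Red* minus White* difference of 0.04 (adjusted p = 0.788).

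The call counts of Red* eggs depend on the scaling. With the 20 most abundant RNAs removed, which moved the median of all genes by 0.19, 20 members were higher and 0 lower against White*. Over all genes 2897 were then higher and 432 lower. That scaling is by sums rather than by median of ratios, so the change is not that of those 20 RNAs alone. With each library centred on its median gene 6 members were higher and 5 lower, and over all genes 1359 and 1609. Under both, Rpn13, Rpn1, Rpn2, Rpt2, Rpt3 and Rpt4 were called higher. Prosbeta2 had differences from White* of -0.19 (adjusted p = 0.0526) and -0.41, and Rpn9 of 0.05 and -0.17, under these 2 scalings. Under the first, the difference of Prosbeta2 was -0.21 (adjusted p = 0.0496) from Fab2L and -0.17 (adjusted p = 0.0674) from w1118, so that the calls against White* and w1118 were lost. Inside each library the ratio of the median regulatory to the median core subunit, free of the scaling, was 0.396 and 0.410 in Red*, 0.367 and 0.364 in White*, 0.341 and 0.332 in Fab2L and 0.374 and 0.372 in w1118. Leaving out White* library 2 left 3 higher and 1 lower. Across all 6682 genes tested, Spearman's rho between length and the Red* minus White* difference was 0.18 in eggs, and 0.34 across the 32 general subunits. The yolk and follicle cell markers summed to 11.96 and 12.2 in Red* eggs and 0.256 and 0.0731 in White*, and 3 of 3 tested were higher in Red*. The 3 tested were the yolk genes Yp1, Yp2 and Yp3. The follicle cell genes Cp36, Cp38 and Vm26Aa had FPKM of at most 0.0764 in the eggs of both lines. The part of length and of these markers in the differences was not tested.

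Against Fab2L, 10 members were higher in Red* eggs and 2 lower, with 12.6% and 11.1% of all genes. All 10 were regulatory subunits. In the base they were the scaffolds Rpn1, 0.35, and Rpn2, 0.16, and the ubiquitin receptors Rpn13, 0.25, and Rpn10, 0.15. In the lid Rpn11 had 0.26. The lid subunits Rpn8 and Rpn7 had 0.26 and 0.26, and the ATPases Rpt2, Rpt3 and Rpt5 0.18, 0.17 and 0.17. The 2 lower members were Prosbeta2 and Prosbeta4, of the core. Removing the 20 most abundant RNAs left 15 higher and 1 lower, at a shift of 0.14 in the median of all genes. With centring on the median gene there were 5 and 5. Over all genes these counts were 2047 and 223, and 753 and 878. Without Fab2L library 2 there were 0 and 1. Of the 32 general subunits 9 had both Red* egg libraries above the other 6, 8 of them regulatory, and 6 had them below, 5 of them core, where 16.9% and 16.8% of all genes did. When the 20 most abundant RNAs were left out of the scaling, these counts were 13 and 1, and no such count was made over all genes. Between White* and Fab2L eggs 2 members were higher, Rpn9, 0.32 (SE 0.053, adjusted p = 0.0123), and Rpt5, 0.23 (SE 0.049, adjusted p = 0.0253), and 1 lower, Rpn2, -0.19 (SE 0.049, adjusted p = 0.0399), against 6.57% and 8.87% of genes. These 3 calls were lost with the 20 most abundant RNAs removed, and 0 to 1 were left when 1 library was left out.

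The difference between Red* and White* was not the same in the 2 tissues. Tested directly, the Red* minus White* difference was lower in heads than in eggs for 14 of 37 members and higher for 1, against 14.9% and 10.3% of 11405 genes. Of the 14 lower, 10 were regulatory and 4 core subunits. Rpn13 had the largest value, -0.995 (SE 0.15, adjusted p = 0.000953): its FPKM was 13.6 and 18.1 in Red* and 22.3 and 23.99 in White* heads, against 77.3 and 80.9 and 59.5 and 54.6 in eggs. Prosbeta1 had -0.88 (SE 0.17, adjusted p = 0.00374), and Rpt3 -0.76 (SE 0.11, adjusted p = 0.000891). Rpn1 and Rpn2, the base scaffolds, had -0.57 and -0.54, and the ATPases Rpt2, Rpt4 and Rpt1 -0.65, -0.46 and -0.44. The member that was higher was Prosbeta2, with 0.44 (SE 0.083, adjusted p = 0.00346). Of 18 chaperone genes 10 were lower and 0 higher in the same test. When the 20 most abundant RNAs were removed, the members called were 19 lower and 1 higher. Under the joint scaling of heads and eggs they were 12 and 2. Over all genes these counts were 2064 and 830, and 1374 and 1704. Without Red* head library 2 there were 22 and 1. The effect of the transgene line Fab2L against w1118 differed between tissues for 1 of 37 members, Rpt5 with 0.42 (SE 0.12, adjusted p = 0.0416), where 6.49% of genes were higher and 6.04% lower. Its FPKM was 36.1 and 38.3 in Fab2L and 29.7 and 27.5 in w1118 heads, and 121 and 124 and 127 and 126 in eggs.

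**Figure D5:**
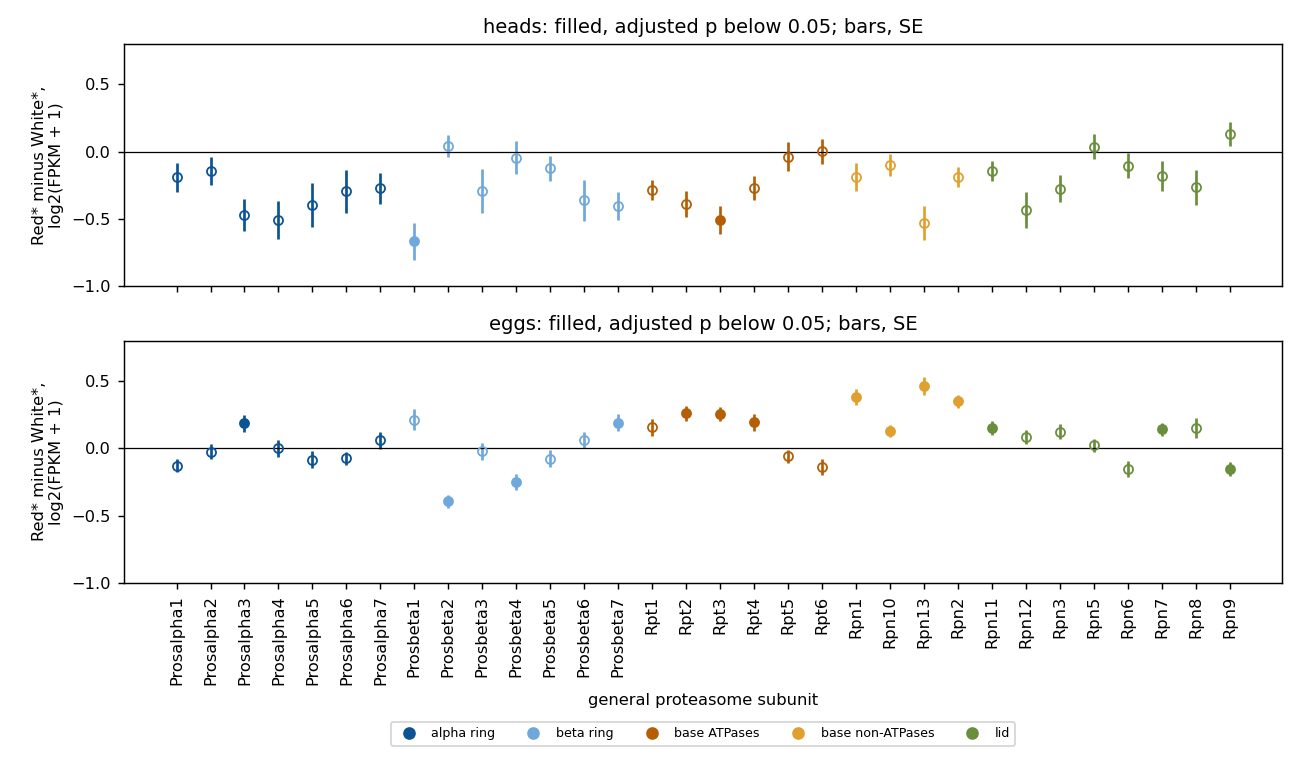
Red* minus White* difference in log2(FPKM + 1) with its SE for each of the 32 general subunits, in heads (top) and eggs (bottom); filled circles passed an adjusted p of 0.05. In heads 28 of 32 values are below 0, and in eggs most regulatory subunits are above 0 while Prosbeta2 and Prosbeta4 are below.

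Among the partners in eggs, the core assembly chaperone gene Pomp was higher in Red* than in White*, by 0.49 on the log2 scale with mean FPKM of 60.5 and 42.8, and lower in White* than in w1118 by 0.50, with 61.0 in w1118. REG, the gene of the alternative cap, was lower in Red* than in White*, at 141 and 173. Of the 19 partners tested 6 were higher and 2 lower in Red* than in White*, with a median of -0.07, and of the 17 chaperone genes tested 10 and 2, with a median of 0.23. Over all genes 21.5% were higher and 22.7% lower, with a median of -0.02. Of the 16 ubiquitin and conjugation genes 0 were higher and 5 lower in that comparison, with a median of -0.09.

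No variant of the deposited lists specific to Red* or White* lay in a subunit gene. The 6 lists hold 2635 SNPs, small deletions and small insertions on dm6, of which 168, 22 and 20 are specific to Red* and 2379, 30 and 16 to White*. Of these, 0 lay within the span of any of the 48 genes by RefSeq or within 1000 bp of one. Variants were not counted at other genes, so this 0 does not set the subunit genes apart from them. Within 5000 bp lay 5, all White*-specific SNPs on 3R beyond the end of Rpn2, at 2265 to 3394 bp from it. Rpn2 had FPKM of 54.3 and 51.02 in White* eggs, 60.4 and 59.9 in Fab2L and 57.4 and 58.5 in w1118. In heads it had 19.1 and 17.7 in White*, 17.5 and 17.5 in Fab2L and 19.2 and 19.6 in w1118. A relation of these variants to the level of Rpn2 was not tested. Differences in DNA between w1118 and the transgene lines were not analysed here.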

How the data were processed

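The authors deposited FPKM of each gene in 16 long RNA libraries. The submitters' processing notes name STAR 2.5, DESeq2 and the build dm6, and the counting tool, its strand setting and the annotation are not given in the sources used here. In each library the deposited FPKM values times gene length are whole multiples of 1 step, so whole reads were recovered for 16155 of 16157 genes with a value, to within 0.001 reads, and for all 48 members. The authors' scaling equaled median-of-ratios size factors within heads (largest deviation 0.00737%) and within eggs (0.00589%). Library pairs of a line differed by more than counting error, with a chi-square of 10.7 to 51.5 per degree of freedom over genes, so no pair was taken as 1 library. The fewest reads of a general subunit were 251.

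Members were matched by symbol, which 17252 of 17558 identifiers have, and positions came from RefSeq Release 6. limma 3.58.1 (R 4.3.3) was fitted with a trend to log2(FPKM + 1), keeping genes whose value passed 1 in 2 libraries or more, all 4 lines together within a tissue, or all 16 libraries for comparisons of tissues. Differences understate changes of low genes. p-values were adjusted over all genes tested by the Benjamini-Hochberg method, and below 0.05 was called. The fit was tested on simulated data. Alternatives were pseudocounts of 0.1 and 5, no filter, mean FPKM above 5, other scalings, voom on the recovered reads, the compared lines alone, a replicate block, and each library left out. The joint scaling, counts of non-overlapping genes under other scalings and ratios of sums were added after seeing the data. The members, lists and tests were chosen with earlier results of these data known. Named were the members called in a line comparison, up to 12 by size, otherwise the 3 largest differences, and for the tissues the 5 largest and 5 smallest. Gene lists matched the files for 106 of 114 listed genes. Titles were followed where the replicate numbers of Red* eggs differ from the file labels, and where the egg extraction text names heads. The authors' deposited variant lists give positions as other values on dm6. Promoter and protein sequences were not used here, so the planned motif and identity counts were not made. Small RNA and genomic libraries were not analysed here.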

Additional observations from a re-analysis of the deposited data

Results flagged for a closer look

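The difference between Red* and White* differed between heads and eggs in limma's test of the difference itself for 15 general subunits. The values are the head difference minus the egg difference on the log2 scale. In the core particle they were -0.65 for Prosalpha3, -0.50 for Prosalpha4, -0.88 for Prosbeta1, -0.59 for Prosbeta7 and 0.44 for Prosbeta2. In the ATPase ring they were -0.44 for Rpt1, -0.65 for Rpt2, -0.76 for Rpt3 and -0.46 for Rpt4. Among the other base subunits they were -0.57 for Rpn1, -0.54 for Rpn2 and -0.995 for Rpn13, and in the lid -0.40 for Rpn3, -0.29 for Rpn11 and -0.52 for Rpn12. The difference between Fab2L and w1118 differed between heads and eggs for Rpt5, with 0.42.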

How the results depend on the processing

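With 2 libraries per line, counts of calls depended on single libraries in both tissues. Calls over all genes also changed when a library was left out, so these counts do not set the subunits apart from other genes. Counts of members called when 1 library was left out ranged from 0 to 9 for Red* against White* heads, 0 to 1 for Red* against Fab2L heads, 0 to 0 for Fab2L against w1118 heads and 0 to 12 for Red* against w1118 heads. In eggs they ranged from 4 to 11 for Red* against White*, 0 to 1 for White* against Fab2L, 1 to 9 for Red* against Fab2L, 6 to 9 for Fab2L against w1118, 9 to 18 for Red* against w1118 and 5 to 12 for White* against w1118. For the tissue difference of the Red* against White* effect the range was 11 to 23, and for that of Fab2L against w1118 0 to 1. The cause was not tested.

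For Red* against White* heads the count was 0 with no filter on low values, with the 20 most abundant RNAs removed from the scaling, with centring on the median gene, with only the compared lines fitted and with the replicate block. For Fab2L against w1118 heads it was 0 with no filter, with only the compared lines and with the replicate block, and 2 with the 20 most abundant RNAs removed. With only the compared lines it was 0 for Red* against w1118 heads, 7 for Red* against White* eggs and 4 for Red* against Fab2L eggs. With the 20 most abundant RNAs removed it was 0 for White* against Fab2L eggs, 11 for White* against w1118 eggs and 0 for the tissue difference of Fab2L against w1118, which was also 0 with voom. The replicate numbers were not taken to pair libraries, since the deviations of same-numbered libraries of different lines correlated at -0.18 to 0.23 in heads and -0.20 to 0.36 in eggs, and the block left the other counts within 1.5 times. Between values of single members, 2 of 1578 turned direction: Rpn9 in Red* against White* eggs, at 0.0474 with the 20 most abundant RNAs removed, and Prosalpha4T1 in White* against w1118 heads, where leaving out 1 library gave -0.83 to 0.23, the higher without w1118 library 2. The ratio of regulatory to core subunits by sums was 0.988 in heads and 0.503 in eggs, and 5 variants lay within 5000 bp.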
